A study of Mus musculus with 7 samples.

Results

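The complement genes described here are C1qa, C1qb, C1qc, C3, C4b, Cfb, Cfp, C3ar1 and C5ar1, each read through the probe sets annotated to that symbol and no other. Of the 9 genes, 7 had such a probe set, carried by 13 of the 45037 probe sets tested, and C3 and C4b are not analysed here. Complement is a cascade of plasma and tissue proteins that tags microbes, immune complexes and dying cells. C1q, a recognition molecule assembled from the products of C1qa, C1qb and C1qc, starts the classical route and binds apoptotic cells. Factor B (Cfb) and properdin (Cfp) build and stabilise the C3 convertase of the alternative route, and the split products C3a and C5a act on phagocytes through C3ar1 and C5ar1. In skin, C1q comes mainly from macrophages, whereas C5ar1 is carried by neutrophils, monocytes, macrophages and mast cells.

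Expression arrays were run on C57BL/6 wound edges collected at day 5. The groups are MFG-E8 WT, 3 animals numbered 2, 3 and 4, and MFG-E8 KO, 4 animals numbered 8, 10, 11 and 12, each on its own array. MFG-E8 is a secreted protein that bridges phosphatidylserine on dying cells to integrins of phagocytes, and the labels state neither the sex and age of the animals nor how the gene was disrupted. The labels record no litter, batch or processing day, so whether these differ between the genotypes cannot be told. The p-values rest on the spread between these animals. Values are centred log2 values: a constant per probe set had been subtracted before deposit, so a value is a deviation and no level, and differences are given as KO minus WT. Mfge8 checked the labels, with 0.91, 0.76 and 1.0 in WT and -0.64, -0.96, -1.14 and -1.30 in KO (log2 -1.90, SE 0.16, limma adjusted p = 0.00875). That call was lost without WT animal 2 (log2 -1.89, adjusted p = 0.0922), WT animal 3 (-1.97, 0.0669) or KO animal 10 (-1.92, 0.059), and with the macrophage marker mean as a covariate (-1.99, 0.139). Hair follicle markers set KO animals 8 and 10 (list means 4.05 and 4.15) apart from the other animals (-2.71 to 0.77). Xist and 3 Y-linked genes stayed between -0.44 and 0.40 on all 7 arrays, which matters for Cfp because it lies on chromosome X.

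Promoter sequences are shown for the neighbouring C1q genes, which varied together, and for C5ar1 and Cfp, whose gene values did not overlap between the genotypes. In the RefSeq table (GRCm38.p6) C1qb, C1qc and C1qa follow each other on chromosome 4 with 0 protein-coding genes between them. RefSeq promoters matched 6 of the 9 genes. Each sequence is the 250 bases before the start site, read 5′ to 3′ on the minus strand of the assembly, and capitals mark every AGGAAG on either strand (CTTCCT when read from the other), the core that ETS factors such as the myeloid regulator PU.1 recognise. C1qb is at chr4:136886201-136886450, C1qc at chr4:136892915-136893164, C5ar1 at chr7:16259339-16259588 and Cfp at chrX:20931556-20931805.
C1qb: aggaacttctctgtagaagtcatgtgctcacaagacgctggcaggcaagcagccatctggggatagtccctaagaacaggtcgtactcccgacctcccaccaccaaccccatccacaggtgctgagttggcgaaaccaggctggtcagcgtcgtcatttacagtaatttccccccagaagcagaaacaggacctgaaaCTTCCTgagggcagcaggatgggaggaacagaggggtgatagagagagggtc
C1qc: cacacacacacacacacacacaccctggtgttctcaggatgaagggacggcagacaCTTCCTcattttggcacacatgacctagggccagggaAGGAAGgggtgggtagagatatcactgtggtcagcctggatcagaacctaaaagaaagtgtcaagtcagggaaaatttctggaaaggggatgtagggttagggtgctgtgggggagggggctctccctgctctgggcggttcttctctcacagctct
C5ar1: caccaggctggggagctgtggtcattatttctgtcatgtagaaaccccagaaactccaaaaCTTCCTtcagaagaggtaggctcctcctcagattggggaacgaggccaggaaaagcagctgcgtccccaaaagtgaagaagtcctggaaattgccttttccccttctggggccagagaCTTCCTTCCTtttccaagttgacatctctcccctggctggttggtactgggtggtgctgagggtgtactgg
Cfp: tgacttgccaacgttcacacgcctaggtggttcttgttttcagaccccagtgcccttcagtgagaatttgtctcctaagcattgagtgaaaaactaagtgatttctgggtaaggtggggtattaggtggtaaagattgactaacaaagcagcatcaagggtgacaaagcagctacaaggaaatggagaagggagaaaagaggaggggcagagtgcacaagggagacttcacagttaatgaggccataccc

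The C1qb promoter held 1 such match, starting 52 bases before the start site, and that of C1qc held 2, at 194 and 157 bases. C5ar1 held 3, at 189, 71 and 67 bases, the last ones overlapping each other, and Cfp held 0. Among 32817 RefSeq promoters of the same length, 29.5% held at least 1 match and 6.25% held 2 or more, so these letters are common. The motifs TGANTCA (AP-1), TTGCNNAA (C/EBP type, 9.57% of promoters), TATAAA (12.4%) and those of NF-kB type (0.357%) and IRF type (2.97%) were searched on both strands too. None of them occurred in the printed windows, whereas C3ar1, whose promoter is not printed, held TGACTCA 22 bases before its start site, and TGANTCA occurred in 6.75% of promoters. A match is a description of the letters and shows no binding.

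All 13 probe sets had a lower mean in KO than in WT, with a median difference of log2 -0.32 against 0.013 over all 45037 probe sets, of which 46.8% were lower. None (0) of the 13 passed limma at an adjusted p under 0.05, a threshold that 0.0444% of all probe sets passed, and the adjusted p ranged from 0.278 to 0.996. At an unadjusted p under 0.05 there were 3, all lower in KO (5.22% of all probe sets), namely both probe sets of C5ar1 and 1 of Cfp. In the same 3 probe sets every KO animal lay below every WT animal, as it did in 4.54% of all probe sets. That count was 7 without WT animal 4 (10.2% of all probe sets) and 6 without KO animal 12 (8.12%). Values came from a bulk tissue, where fewer cells of a type and less RNA per cell cannot be told apart.

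**Figure D1:**
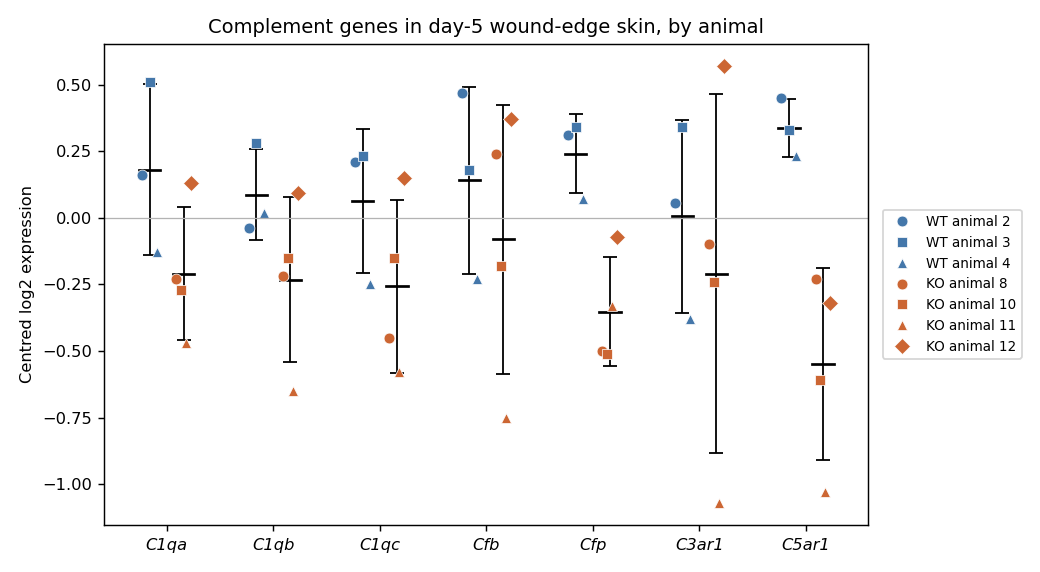
Centred log2 expression (vertical axis) of the 7 measured complement genes in each animal, with WT in blue and KO in orange, a marker per animal, and bars for the mean and SD of 3 WT and 4 KO animals. Only Cfp and C5ar1 have all KO animals below all WT animals, and KO animal 11 is the lowest of all animals for every gene shown except Cfp.

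The animals kept a similar order across the genes. KO animal 11 held the lowest value of all 7 arrays in 11 of the 13 probe sets, and KO animal 12 the highest KO value in 10. Within WT, animal 3 was highest in 11 and animal 4 lowest in 11. The genotypes therefore overlapped for most of the genes through KO animal 12 and WT animal 4.

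The C1q chains were lower on average in KO, with overlapping genotypes and no call. C1qa measured 0.16, 0.51 and -0.13 in WT animals 2, 3 and 4, and -0.23, -0.27, -0.47 and 0.13 in KO animals 8, 10, 11 and 12. Thus 3 KO animals lay below all WT animals and KO animal 12 lay among them. The difference was log2 -0.39 (SE 0.19, 95% interval -0.82 to 0.037, limma adjusted p = 0.706), and -0.23 without WT animal 3.

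C1qc, the chain encoded between the other two, was at 0.21, 0.23 and -0.25 in WT and at -0.45, -0.15, -0.58 and 0.15 in KO. Its WT animal 4 sat within the KO range, and the difference was log2 -0.32 (SE 0.20, 95% interval -0.78 to 0.13, limma adjusted p = 0.775). C1qb had 3 probe sets, at log2 -0.36 (1417063_at), -0.25 (1434366_x_at) and -0.35 (1437726_x_at), with adjusted p from 0.723 to 0.801. Their mean was -0.037, 0.28 and 0.019 in WT and -0.22, -0.15, -0.65 and 0.094 in KO, so that KO animal 12 again reached into the WT range. That mean differed by log2 -0.32, and by -0.18 without KO animal 11. The intervals of all 5 C1q probe sets include 0 and also a difference of log2 -0.65, so these 7 arrays leave a wide range of possible differences.

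**Figure D2:**
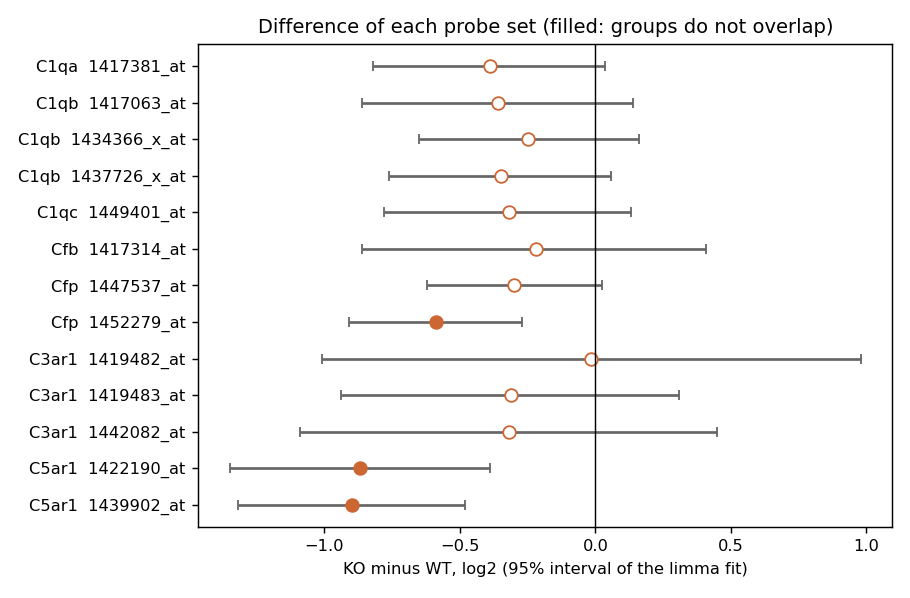
KO minus WT difference (log2, horizontal axis) of each of the 13 probe sets with the 95% interval of the limma fit; filled points are probe sets in which the genotypes do not overlap. All points lie below 0, and the intervals of both C5ar1 probe sets and of Cfp 1452279_at exclude 0 before adjustment for 45037 tests.

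Across the 7 animals the C1q chains varied together. Over arrays, Pearson's r was 0.886 for C1qa and C1qb (Spearman's rho 0.857, exact permutation p = 0.00476 and 0.0238, adjusted over 6 relations 0.0103 and 0.041). For C1qa and C1qc r was 0.902 (rho 0.893, exact permutation p = 0.00516 and 0.0123, adjusted 0.0103 and 0.0369), and for C1qb and C1qc 0.84 (rho 0.821, exact permutation p = 0.0127 and 0.0341, adjusted 0.0176 and 0.041). Without KO animal 11 and WT animal 3, the animals farthest from the median, r was 0.734, 0.88 and 0.676. For deviations from the genotype means r was 0.822, 0.863 and 0.772. The permutations of all 6 relations ran over the arrays without regard to genotype, so their p-values include the genotype difference. No p-value was computed for the deviations. Both values of a point come from the same array, so the relation includes whatever the genes of a library share.

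C1q also followed the macrophage markers. The mean of the C1q chains was 0.11, 0.34 and -0.12 in WT and -0.30, -0.19, -0.57 and 0.12 in KO, and that of 17 macrophage markers ran from -0.079 to 0.29 in WT and from -0.51 to 0.09 in KO. Their r was 0.945 (rho 0.929, exact permutation p = 0.00397 and 0.00675, adjusted over 6 relations 0.0103 and 0.0369), 0.842 without KO animal 11 and WT animal 3, and 0.913 for deviations from the genotype means. C1q minus the marker mean differed by log2 0.024 between the genotypes (exact permutation p = 0.857). The WT animals averaged -0.042 ± 0.091 (SD, n = 3) on this measure, the KO animals -0.017 ± 0.12 (SD, n = 4). With the marker mean as a covariate C1qa was at log2 0.013, C1qb at 0.013 and C1qc at 0.084. No other cell type list was correlated with C1q, so the relation is not shown to be particular to macrophage markers. The fibroblast marker mean was also lowest in KO animal 11 (-0.49). The endothelial marker mean was not (-0.27, with KO animal 10 lowest at -0.57).

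The genes most alike to the C1q mean over the 7 arrays were Otulinl (r = 0.993), Galnt12, a glycosyltransferase of mucin-type O-glycosylation (0.978), Swap70, a signalling protein of B cells and other leukocytes (0.975), Pgp, a metabolite phosphatase (0.969), and Fermt3, the kindlin of blood cells (0.968). They are the highest of all genes with a value, over only 7 points, and are given as a description.

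**Figure D3:**
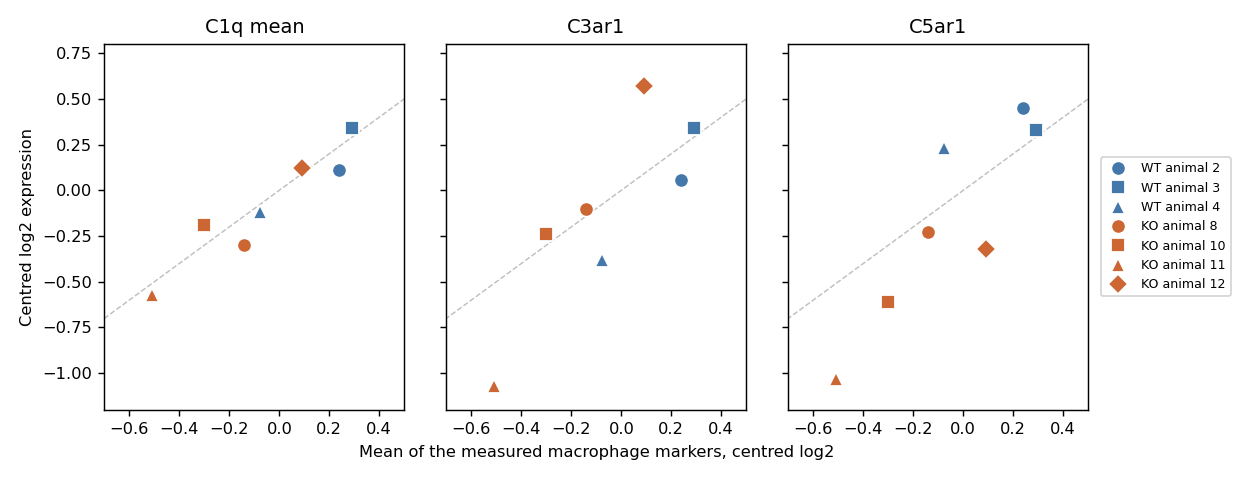
Centred log2 expression of the C1q mean, C3ar1 and C5ar1 (vertical axis) against the mean of 17 macrophage markers (horizontal axis) in each animal, WT in blue and KO in orange; the dashed line marks equal values. C1q lies along the line in both genotypes, whereas C5ar1 lies above it in all 3 WT animals and below it in all 4 KO animals. WT animal 3 (0.033) and KO animal 8 (-0.089) lie close to the line for C5ar1. Values are centred per probe set, so the place of the line has no absolute meaning.

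In the alternative route, Cfp 1452279_at separated the genotypes, whereas Cfp 1447537_at and factor B did not. Properdin, which leukocytes release, is read by 2 probe sets. Cfp 1452279_at gave 0.31, 0.34 and 0.072 in WT and -0.50, -0.51, -0.33 and -0.072 in KO. All 4 KO animals were below all WT animals, with a narrow gap between WT animal 4 and KO animal 12. The difference was log2 -0.59 (SE 0.14, 1.51-fold lower, 95% interval -0.91 to -0.27, unadjusted p = 0.00258, limma adjusted p = 0.365), and the exact two-sided permutation p was 0.0571, the smallest that 35 splits allow.

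The weaker Cfp 1447537_at, the only probe set here with a recovered level under 8 on the log2 scale, gave 0.18, 0.49 and -0.035 in WT and -0.16, 0.052, -0.14 and -0.086 in KO. It had the same direction (log2 -0.30, SE 0.14, limma adjusted p = 0.706), with KO animal 10 above WT animal 4. With the macrophage marker mean as a covariate Cfp was at log2 -0.40 (limma adjusted p = 1), and Cfp minus that mean overlapped between the genotypes (log2 -0.22, exact permutation p = 0.229). Cfp minus the mean of 13 neutrophil markers differed by log2 -0.066 (exact permutation p = 0.8).

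Cfb, the protease subunit of the alternative convertase and an acute-phase gene, was at 0.47, 0.18 and -0.23 in WT and at 0.24, -0.18, -0.75 and 0.37 in KO. The genotypes overlapped across almost the whole range, and the difference was log2 -0.22 (SE 0.28, 95% interval -0.86 to 0.41, limma adjusted p = 0.89). Leaving out KO animal 11 moved it to log2 0.0015. Acute-phase genes and cytokines that induce C3 and Cfb were lower in KO in 15 of 15 cases (median log2 -0.60, against 0.0038 over all 18193 genes). None (0) of these passed an adjusted p of 0.05 by limma, a threshold that 0.0275% of genes passed, and 10 had an unadjusted p under 0.05, all lower in KO (5.94% of genes). Their list mean was 0.26 to 0.65 in WT and -0.47 to -0.023 in KO. This list shares Lcn2 with the neutrophil markers. The 95% interval of Cfb includes the list median, and a relation between them was not tested.

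Among the anaphylatoxin receptors C5ar1, through which C5a draws in and activates phagocytes, had the most negative differences of the 13 probe sets. Probe set 1439902_at gave 0.61, 0.28 and 0.24 in WT and -0.24, -0.61, -0.93 and -0.33 in KO, and 1422190_at gave 0.28, 0.37 and 0.23 in WT and -0.23, -0.62, -1.14 and -0.32 in KO. In both, every KO animal lay below every WT animal, with KO animal 11 the lowest and KO animal 8 the nearest to WT. The differences were log2 -0.90 (SE 0.18, 1.87-fold lower, 95% interval -1.32 to -0.48, unadjusted p = 0.00103, limma adjusted p = 0.278) and log2 -0.87 (SE 0.21, 1.83-fold lower, unadjusted p = 0.00279, limma adjusted p = 0.375). They ranked at the 0.466 and 0.526 percentiles of all probe sets, and the exact two-sided permutation p of the gene value was 0.0571, the smallest possible.

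C5ar1 lies on chromosome 7, as does Mfge8, beside its paralogue C5ar2, with 0 protein-coding genes between them. Whether the position contributes was not tested. Leaving out any 1 animal gave C5ar1 differences of log2 -0.99 to -0.72, and 0 of these passed.

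C3ar1, the receptor of C3a, showed the widest spread among KO animals. The mean of its 3 probe sets was 0.057, 0.34 and -0.38 in WT and -0.10, -0.24, -1.07 and 0.57 in KO. KO animal 12 was the highest and KO animal 11 the lowest of all 7, a span of log2 1.65 within the KO group. The probe sets gave log2 -0.016 (1419482_at, SE 0.44), -0.31 (1419483_at, SE 0.27) and -0.32 (1442082_at, SE 0.34), with limma adjusted p from 0.835 to 0.996. The gene value turned to log2 0.072 without KO animal 11. C3ar1 followed the C1q mean (r = 0.873, rho 0.821, exact permutation p = 0.0147 and 0.0341, adjusted over 6 relations 0.0176 and 0.041, r = 0.817 without KO animals 11 and 12). For deviations from the genotype means r was 0.955.

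The macrophage marker mean and C3ar1 had r = 0.837 (rho 0.786, exact permutation p = 0.0226 and 0.048, adjusted 0.0226 and 0.048), which dropped to 0.573 without KO animal 11 and WT animal 3. For deviations from the genotype means this r was 0.962. C5ar1 minus C3ar1 was 0.39, -0.011 and 0.61 in WT and -0.13, -0.38, 0.04 and -0.89 in KO, a difference of log2 -0.67 in which the genotypes overlapped (exact permutation p = 0.114).

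C5ar1 was also set against the macrophage markers, which describes the values and tests no cause. C5ar1 minus their mean was 0.20, 0.033 and 0.31 in WT and -0.089, -0.31, -0.52 and -0.41 in KO, without overlap (log2 -0.52, exact permutation p = 0.0571, the smallest possible). With that mean as a covariate C5ar1 was at log2 -0.52 (limma adjusted p = 1). C5ar1 minus the mean of 13 neutrophil markers overlapped between the genotypes (log2 -0.36, exact permutation p = 0.343).

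The gene most alike to C5ar1 over the 7 arrays was Itgam (r = 0.994), the alpha chain of complement receptor 3, which binds the C3 fragment iC3b. It was followed by the kinase Btk (r = 0.985), the sialyltransferase St3gal4 (0.983), the adhesion receptor Adgra2 (0.979) and Vegfa (0.977). These values include the genotype difference, and for deviations from the genotype means they were 0.983, 0.961, 0.964, 0.918 and 0.902. Itgam also lies on chromosome 7, whereas Btk lies on X, St3gal4 on 9, Adgra2 on 8 and Vegfa on 17, and position was not tested.

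**Figure D4:**
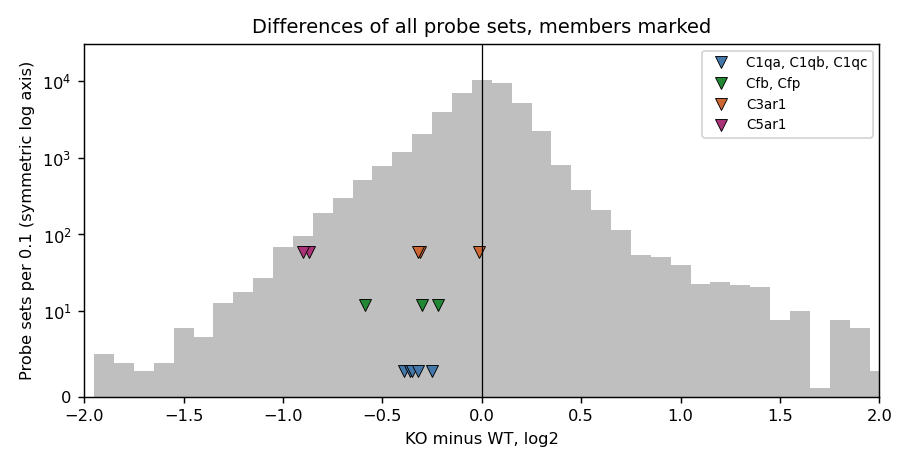
Number of probe sets (vertical axis, symmetric log scale) by KO minus WT difference (log2, horizontal axis, shown from -2 to 2) for all 45037 probe sets, with triangles for the 13 complement probe sets at heights chosen to keep them apart. The C1q triangles lie between the 5.95 and 12.1 percentiles of all probe sets, Cfb at 13.8, the C3ar1 triangles at 8.53, 8.7 and 43.2, those of Cfp at 2.26 and 9.48, and those of C5ar1 below 1.

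Other complement receptors were lower in KO in most cases. Of 7 measured receptor genes 6 were lower in KO (median log2 -0.32), 0 passed an adjusted p of 0.05 by limma, and 3 had an unadjusted p under 0.05, lower in KO (5.94% of all genes). Itgam was at 0.59, 0.57 and 0.45 in WT and at -0.47, -0.88, -1.47 and -0.45 in KO (log2 -1.36, SE 0.24, limma adjusted p = 0.195). It lay clear of WT in every KO animal and passed only with array weights (adjusted p = 0.0324), which gave KO animal 10 the highest weight, 2.89, and KO animal 11 the lowest, 0.431. Its partner chain Itgb2 was at log2 -0.60 (limma adjusted p = 0.596) with KO animal 8 among the WT animals.

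Cd93, a surface lectin of endothelium and myeloid cells once proposed as a C1q receptor, was at 0.42, 0.71 and 0.013 in WT and -0.19, -0.33, -0.52 and -0.013 in KO (log2 -0.65, limma adjusted p = 0.438). Its groups did not overlap, nor did those of Itgam, against 5.14% of genes with KO below WT. Vsig4, a macrophage receptor for C3b, was at log2 -0.32 (limma adjusted p = 0.784), with WT animal 2 far above the rest at 0.92, and at log2 -0.0021 without that animal. The median of the receptor list was log2 -0.58 with array weights.

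The classical and lectin route was split between directions. Of 11 measured genes 6 were lower and 5 higher in KO (median log2 -0.056), and 0 had an unadjusted or adjusted p under 0.05 by limma. The 5 higher were the lectin route genes Mbl1, Mbl2, Fcnb, Colec10 and Colec11. C1ra (log2 -0.17), C1s1 (-0.056) and C2 (-0.12) of the classical route were lower, as were Fcna, Masp1 and Masp2. The genes with the smallest p were the ficolin Fcna (log2 -0.49, limma adjusted p = 0.681), the mannose-binding lectin Mbl2 (log2 0.22, 0.779), the protease Masp1 (log2 -0.11, 0.839) and the C1q-bound protease C1ra (log2 -0.17, 0.902). The terminal genes also stayed close to 0, with 1 of 6 lower and 5 higher (median log2 0.032). Among them C9, the pore-forming component, was at log2 0.38 (SE 0.13, unadjusted p = 0.021, limma adjusted p = 0.499), the only one with an unadjusted p under 0.05 (2.26% of genes were higher in KO at that p). C8b was at log2 0.12, C8a at 0.054 and Hc, which encodes C5, at -0.12. Mbl2 and C8a had a recovered level under 4 on the log2 scale, the lowest band.

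Of 11 measured regulators 8 were lower and 3 higher (median log2 -0.13) and 0 passed an adjusted p of 0.05 by limma. Vtn, which blocks the terminal complex, was at log2 -0.37 (limma adjusted p = 0.555) as the only one with an unadjusted p under 0.05 (5.94% of all genes were lower in KO at that p). The decay accelerator Cd55 was at log2 -0.23 (0.729), the carboxypeptidase Cpn1, which inactivates the anaphylatoxins, at -0.33 (0.748) and the mouse membrane regulator Cr1l at -0.13 (0.785). The median of the classical and lectin genes became log2 0.055 and that of the regulators -0.039 without WT animal 2.

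**Figure D5:**
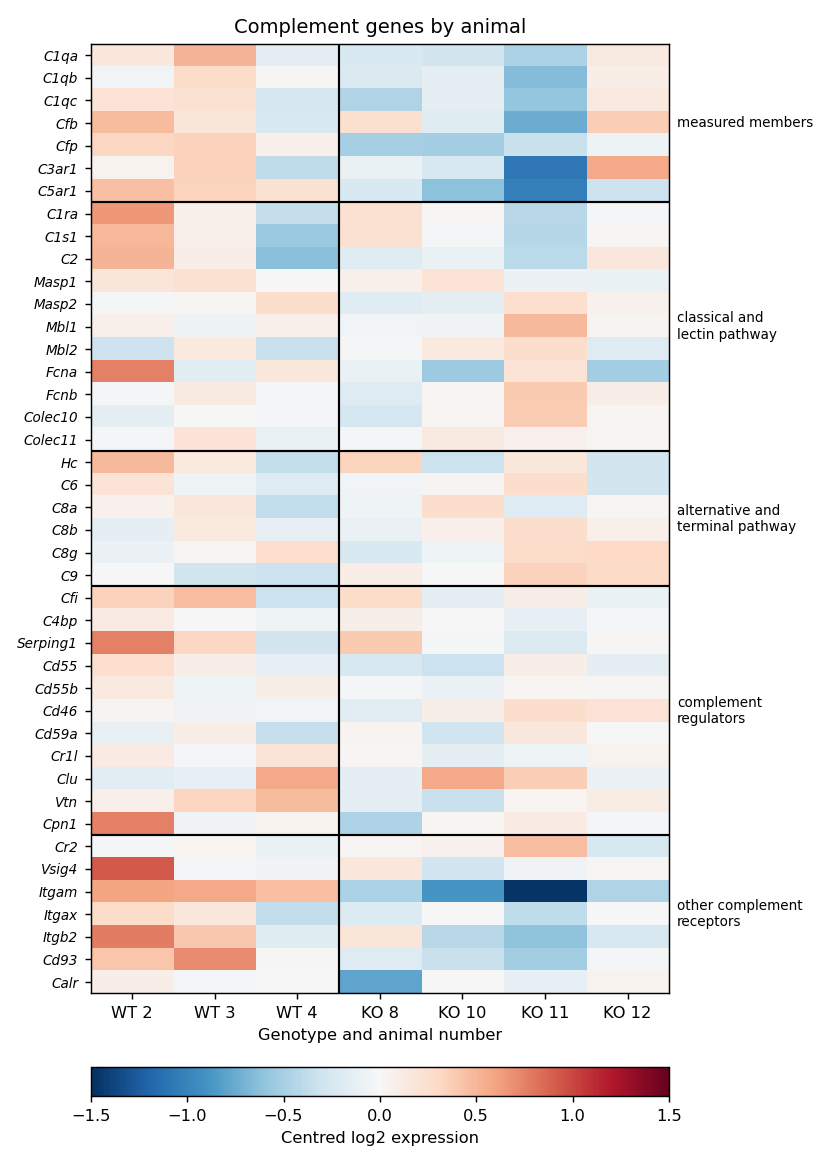
Centred log2 expression (colour, blue low and red high) of the 7 measured members and of 35 other complement genes (rows, grouped by role) in each animal (columns, WT left of the line). All 4 KO cells are below all WT cells in the Cfp, C5ar1, Itgam and Cd93 rows, and KO animal 11 is the lowest animal in every member row except Cfp.

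Markers of several cell types were also lower in KO, and their part in the complement values was not tested. The macrophage and neutrophil comparisons above, and a fit with the hair marker mean as a covariate, describe the values and test no cause. The macrophage and neutrophil means came from the same arrays and were lower in KO, so they cannot separate cell content from genotype. All 17 measured macrophage markers were lower (median log2 -0.38, 5 with an unadjusted p under 0.05, against 5.94% of all genes lower in KO at that p), with Mrc1 at log2 -0.31 and Cd14 at -0.48. Of 13 neutrophil markers 11 were lower (median log2 -0.50), with the receptors Csf3r at log2 -1.01 (limma adjusted p = 0.107) and Cxcr2 at -0.95 (0.255), and the list mean was 0.15 to 0.88 in WT and -0.33 to 0.11 in KO. Of 9 mast cell markers 8 were lower (median log2 -0.47), with Hdc at log2 -0.90 and Cpa3 at -0.47, and list means of -0.062 to 0.59 in WT and -0.43 to 0.19 in KO overlapped. Levels were recovered only as coarse bands, which do not settle whether a marker is near background. Whether a cell type was absent therefore cannot be read from these values.

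All 10 endothelial markers were lower in KO (median log2 -0.78), all 10 at an unadjusted p under 0.05 and 9 without overlap (5.94% and 5.14% of all genes), with list means of 0.18 to 0.64 in WT and -0.57 to -0.16 in KO. All 10 fibroblast markers were lower too (median log2 -0.48), 4 of them at that p. The medians were log2 -0.20 for 9 T and B cell markers, -0.17 for 9 dendritic and Langerhans cell markers, -0.039 for 10 keratinocyte markers, -0.21 for 8 adipocyte markers, -0.58 for 10 skeletal muscle markers and 2.50 for 12 hair follicle markers. In none of the lists did a gene pass an adjusted p of 0.05 by limma, but the endothelial gene Ecscr (log2 -0.95, adjusted p = 0.0867) passed with array weights (log2 -1.08, adjusted p = 0.0285). Without KO animals 8 and 10, which stood apart in hair genes, all 13 complement probe sets were still lower in KO, with a median of log2 -0.33 and 4 without overlap, as in 11.9% of all probe sets on those 5 arrays. With the hair marker mean as a covariate all 13 were lower too, with a median of log2 -0.41.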

How the data were processed

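The authors deposited 1 table of log2 values (GCRMA, per the submitters' processing notes, version not given in the sources used here). The log base is not stated and is taken as 2. The values are centred per probe set: in 72.4% of probe sets the middle pair of arrays mirror each other within 1e-06, so the centring baseline included at least 1 array not analysed here, and levels are known only as coarse bands. Of 45101 probe sets 64 controls were left out. Of the 45037 tested 34945 carry 1 gene symbol in the platform annotation, 932 several and 9160 none. A gene value is the mean of the gene's probe sets in its highest level band, which for Cfp is 1452279_at alone. limma (3.58.1, R 4.3.3; lmFit and eBayes) was fitted to all probe sets, and to 18193 gene values, with Benjamini-Hochberg adjustment over all of them. Single values were also tested by exact two-sided permutation over 35 splits. The probe set fit was checked on data simulated for the KO against WT comparison over 45037 probe sets. This check found 79% of the probe sets shifted by log2 1 and 99% of those shifted by log2 2. Of its calls, 4.81% were probe sets left as they were. The simulated noise was independent between probe sets, without the variation that the real arrays share. These rates therefore check the code and do not give the power of the real comparison.

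Members and lists were chosen with earlier results of these data known. Named were all members, up to 4 genes with the smallest p per complement list, 2 per cell type list, Mfge8, and the 5 genes most alike in pattern to C1q and to C5ar1. Alternatives covered normalization, variance model, array weights, probe set filters, covariates and arrays left out. The number of arrays limits the precision.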

Additional observations from a re-analysis of the deposited data

Results flagged for a closer look

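The mean of the 6 alternative and terminal pathway genes was 0.19 in KO animal 11, against -4.1e-05, -0.0024 and 0.025 in KO animals 8, 10 and 12. Its gap to the nearest other animal was 0.856 of the range of the KO group, above Dixon's critical value at the 95% level for 4 samples. It was the 1 flagged among 75 groups of 4 examined, and chance flags about 5% of such groups.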

How the results depend on the processing

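The direction of 205 of 219 member probe set values was kept over 17 alternatives, among them all values of C5ar1 and Cfp, and 14 reversed. The cause was not tested. Alternatives that change only the variance model or the choice of probe sets could not alter a difference, so part of the kept directions was fixed in advance. With 3 WT and 4 KO arrays, 0 member probe sets passed an adjusted p of 0.05 by limma under any alternative. The main fit gave 3 at an unadjusted p under 0.05, which was not counted under the others. With the macrophage marker mean as a covariate the median over the 13 probe sets was log2 0.013 and 5 were lower in KO. The C1q values were then 0.013 (C1qa), 0.10, 0.0085 and -0.072 (C1qb probe sets), 0.013 (C1qb gene) and 0.084 (C1qc), with Cfb at 0.44, the C3ar1 gene at 0.65, its probe sets at 1.10, 0.33 and 0.52, and C1ra at 0.21. C3ar1 1419482_at was at log2 0.024 with array weights and 0.13 after quantile normalization. C8a was at -0.059 with the hair marker mean as a covariate and -0.037 without KO animals 8 and 10. Leaving out 1 animal at a time gave 3 to 7 probe sets with KO below WT and medians of log2 -0.49 to -0.22. The same gave ranges of -0.55 to -0.23 for C1qa, -0.43 to -0.18 for C1qb, -0.48 to -0.22 for C1qc, -0.41 to 0.0015 for Cfb, -0.48 to 0.072 for C3ar1, -0.31 to 0.36 for 1419482_at, -0.41 to 0.093 for C1ra, -0.35 to 0.085 for Hc and -0.11 to 0.16 for C8a. C5ar1 kept log2 -1.03 to -0.52 (limma adjusted p 0.0602 to 1) and Cfp -0.69 to -0.40 (0.0816 to 1). As the values are centred, the variance trend used the recovered level band in place of a mean level. No paired analysis was possible because the animal numbers of the genotypes share none.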

Other observations

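Among C1q-domain and collectin relatives, 10 of 14 were lower in KO (median log2 -0.27) and 0 passed an adjusted p of 0.05 by limma, with 1 lower and 1 higher at an unadjusted p under 0.05, where 5.94% and 2.26% of all genes were. C1qtnf6, a secreted C1q/TNF family protein, was at 1.33, 1.10 and 0.017 in WT and at -0.017, -0.11, -0.33 and -0.028 in KO (log2 -0.94, limma adjusted p = 0.463). Its groups did not overlap, but WT animal 4 lay next to the KO animals. C1qtnf12 was at log2 0.43 (limma adjusted p = 0.519), C1qtnf7 at -0.40 (0.653) and C1qtnf4 at 0.26 (0.675). The list median was log2 -0.085 without WT animal 2.

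Genes of hepatocyte and plasma proteins, the main source of circulating complement, had list means of 0.91 and 1.26 in WT animals 2 and 3, -0.048 in WT animal 4 and -0.16 to 0.077 in KO. All 7 measured were lower in KO (median log2 -0.66), with Fga, a fibrinogen chain, at log2 -0.80 (limma adjusted p = 0.448) and the haem carrier Hpx at -0.62 (0.471). Fga had a recovered level under 4 on the log2 scale, the lowest band. The part of these plasma protein genes in the complement values was not tested.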
